A study of Homo sapiens with 6 samples.

Results

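Processed pseudogenes are copies of spliced mRNAs that were put back into the genome. The members described here were all rows of the deposited expression table of the biotype processed_pseudogene whose FPKM averaged 1 or more across the 6 libraries, and 564 of 10191 processed pseudogenes, in a table of 58735 genes, met that rule. FPKM counts fragments per kilobase of a gene's model after scaling for library size. Of the 564 members, 94 carried names starting with RPL or RPS and were taken as copies of ribosomal protein (RP) genes, and 470 carried other names. Members were thus chosen by their mean level over all libraries and not by the difference between the groups, so that levels are given as a description and differences between groups can be tested. A weak member can still meet the rule through 1 group alone. UBE2V1P1 averaged 4.50 FPKM in wild-type and 0.421 FPKM in shENO1 libraries, and ISCA1P1 0.404 and 1.97 FPKM. In such members the rule and the difference are not fully separate, and the low group lies near the floor.

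Total RNA of U937 cells, an established human line of immature monocyte-like leukaemia cells, was sequenced in 3 libraries of wild-type cells and 3 libraries of shENO1 cells. The label shENO1 is taken to mean a short hairpin RNA that targets ENO1, which encodes the glycolytic enzyme alpha-enolase. The control was labelled wild type and no control hairpin was stated, so an effect of carrying any hairpin cannot be told apart from an effect of lowering ENO1. All libraries came from the 1 line, and no treatment or time point was given. Nothing states that replicate libraries were separate cultures; the spread behind every p-value is that between these libraries and may be technical.

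A processed pseudogene arises when the reverse transcriptase of a LINE-1 retrotransposon copies a mature mRNA and the DNA is inserted at a new place. The copy lacks the introns and the promoter of its parent, and it collects substitutions with age. Genes with abundant mRNA in the germ line have left the most copies in mammalian genomes, RP genes and those of translation factors among them. A read from a stretch in which copy and parent do not differ can be placed on either, so a value for a copy depends on how reads that match several places were counted. That handling was not given in the sources used here, and values of copies that share long stretches with a parent are therefore uncertain as to their locus.

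How far a copy can be told from its parent is seen in the sequences of 5 members, chosen for many reads or for the largest changes that passed the test. Each line holds 90 bases of the transcript in GENCODE release 29 (GRCh38), from within the stretch that aligns with the coding sequence of the parent, and capitals mark the bases that differ between a copy and its parent. EEF1A1P5 (chr9:133019690-133019779, plus strand) had the most reads among the other copies, and its parent EEF1A1 (chr6:73519367-73519456, minus strand) encodes the elongation factor that brings aminoacyl-tRNA to the ribosome. The pair differs at 1 of the 90 bases.
EEF1A1P5: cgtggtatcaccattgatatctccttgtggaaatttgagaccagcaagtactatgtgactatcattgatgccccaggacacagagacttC
EEF1A1: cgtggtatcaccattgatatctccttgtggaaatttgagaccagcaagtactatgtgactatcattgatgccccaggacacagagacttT
RPL10P12 (chr12:68626899-68626988, minus strand) had the largest fall of an RP copy on the log2(FPKM + 1) scale, and its parent is RPL10 (chrX:154400736-154400825, plus strand), a large-subunit protein that joins late in assembly. The pair differs at 10 of the 90 bases.
RPL10P12: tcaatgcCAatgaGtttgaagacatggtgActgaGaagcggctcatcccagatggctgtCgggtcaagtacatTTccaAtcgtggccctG
RPL10: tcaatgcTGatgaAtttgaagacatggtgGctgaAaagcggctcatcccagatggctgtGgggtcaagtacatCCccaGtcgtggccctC
RPL7AP10 (chr19:21150019-21150108, minus strand) was the 1 RP copy that rose, and it differs from RPL7A (chr9:133349974-133350250, plus strand, a span with 1 exon junction) at 11 of the 90 bases.
RPL7AP10: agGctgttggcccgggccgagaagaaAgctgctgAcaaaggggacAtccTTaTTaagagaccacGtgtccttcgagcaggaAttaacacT
RPL7A: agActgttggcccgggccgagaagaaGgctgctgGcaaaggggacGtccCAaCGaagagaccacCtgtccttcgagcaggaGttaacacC
UBE2V1P1 (chr20:3362233-3362322, minus strand) had the largest fall on the log2(FPKM + 1) scale among members that passed the test. Its parent UBE2V1 (chr20:50096751-50113126, minus strand) encodes a catalytically inactive partner of a ubiquitin-conjugating enzyme, and the 90 bases cross 1 exon junction of UBE2V1 and hold 7 differences.
UBE2V1P1: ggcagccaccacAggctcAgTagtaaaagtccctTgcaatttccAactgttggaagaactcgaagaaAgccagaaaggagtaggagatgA
UBE2V1: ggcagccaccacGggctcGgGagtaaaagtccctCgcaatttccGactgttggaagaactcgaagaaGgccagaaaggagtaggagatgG
ISCA1P1 (chr5:62777174-62777263, minus strand) had the largest rise among members that passed. Its parent ISCA1 (chr9:86274234-86282458, minus strand) encodes a mitochondrial iron-sulphur cluster assembly protein, and the stretch crosses 1 exon junction and holds 2 differences.
ISCA1P1: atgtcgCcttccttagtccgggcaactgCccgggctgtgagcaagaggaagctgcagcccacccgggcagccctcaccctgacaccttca
ISCA1: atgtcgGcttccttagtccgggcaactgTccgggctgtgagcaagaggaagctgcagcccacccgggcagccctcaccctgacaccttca

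Reads in genes numbered 14216739 to 17499636 per library, recovered from the values of the table. The targeted gene ENO1 had 526, 545 and 561 FPKM in wild-type cells, against 91.5, 82.7 and 111 FPKM in shENO1 cells, and its 4 processed copies ENO1P1, ENO1P2, ENO1P3 and ENO1P4 had 0 FPKM throughout. Of 12 myeloid marker genes 9 had a mean of at least 1 FPKM, led by ELANE with 644 FPKM, while MPO, CD14 and CD68 were under 1 FPKM. Of 10 markers of other cells 5 were listed at 0 and 3 reached 1 FPKM, among them PECAM1 and COL1A1.

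The libraries did not fall into their groups alone. Wild-type replicates 1 and 2 and shENO1 replicate 3 together held the 3 highest values in 31 of 94 RP copies (33.0%), in 70 of 470 other copies (14.9%) and in 23 of 48 RP parents (47.9%), against 1679 of all 12809 genes tested (13.1%). The trend of a library with gene length, measured as the Spearman correlation of its deviation from the gene mean with length over 10032 protein-coding genes, also differed between libraries. For wild-type replicates 1 to 3 it was 0.01, -0.11 and 0.18, and for those of shENO1 0.06, 0.25 and -0.37, so shENO1 replicates 2 and 3 lay at opposite ends. Counts are therefore given below also without wild-type replicate 3 and shENO1 replicate 3, a choice made after the libraries had been seen.

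Most members were weakly expressed, and among RP copies a few held most of the reads. The median level was 4.37 FPKM for the RP copies and 2.47 FPKM for the other copies, 103 of 564 members reached 10 FPKM and 17 reached 100 FPKM. The 10 highest RP copies held 65.0% of the reads of the RP copies, and the 10 highest other copies 38.9% of theirs. In all, members took 0.443% ± 0.0509 (SD, n = 3) of the reads in genes in wild-type cells and 0.356% ± 0.0794 in shENO1 cells. The single libraries stood at 0.468%, 0.477% and 0.385% against 0.322%, 0.299% and 0.447%, so the groups overlapped. At least 1 library was at 0 in 40 members. At the threshold of 1 FPKM, MARK2P8 and SRP14P3 were just inside, both with a mean of 1.002 FPKM, and AL691449.1 and PRPS1P2 were just outside with 0.999 FPKM and 0.997 FPKM.

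The highest RP copy, RPS2P5, held 421, 462 and 265 FPKM in wild-type libraries and 294, 164 and 565 FPKM in shENO1 libraries. Its highest and lowest values both came from shENO1 cells. RPL7P1 and RPL7P9 copy RPL7, a large-subunit protein. RPL7P1 stood at 170, 202 and 240 FPKM against 162, 157 and 186 FPKM, and RPL7P9 at 163, 177 and 148 FPKM against 109, 108 and 164 FPKM. Both overlapped between the groups. RPL39P3 is identical over its aligned length to RPL39, one of the smallest proteins of the ribosome, and held 143, 176 and 55.1 FPKM in wild-type and 54.4, 54.8 and 248 FPKM in shENO1 libraries. It was thus high in 3 libraries and low in the other 3, and the split ran across both groups. RPL13AP5 had the same split, with 173, 185 and 82.9 FPKM against 74.0, 57.0 and 221 FPKM. RPL13P12 was the exception among the 10 highest RP copies, since its groups did not overlap: it held 93.1, 102 and 106 FPKM in wild-type and 83.0, 75.6 and 89.5 FPKM in shENO1 libraries (log2 fold change -0.28, SE 0.11, adjusted p = 0.141), short of the threshold.

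Among the other copies TMSB4XP8 was the highest member of all. It copies TMSB4X, the gene of thymosin beta-4, a small protein that binds actin monomers. TMSB4XP8 stood at 597, 679 and 843 FPKM in wild-type libraries and 572, 452 and 594 FPKM in shENO1 libraries; the groups did not overlap, but the difference missed the threshold (log2 fold change -0.38, SE 0.19, adjusted p = 0.218). EEF1A1P5 held 246, 240 and 99.2 FPKM in wild-type and 55.4, 56.6 and 226 FPKM in shENO1 libraries, with shENO1 replicate 3 near wild-type replicates 1 and 2. AC005912.1, a copy of the small-subunit gene RPS27 found by sequence, showed the same order, with 314, 367 and 79.3 FPKM against 31.2, 33.3 and 237 FPKM. HMGB1P6, a copy of the chromatin protein gene HMGB1, varied little, with 124, 129 and 108 FPKM against 93.0, 103 and 126 FPKM. Of the 10 highest RP copies and the 10 highest other copies, FABP5P7 alone passed the test of the groups and is described below.

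**Figure D1:**
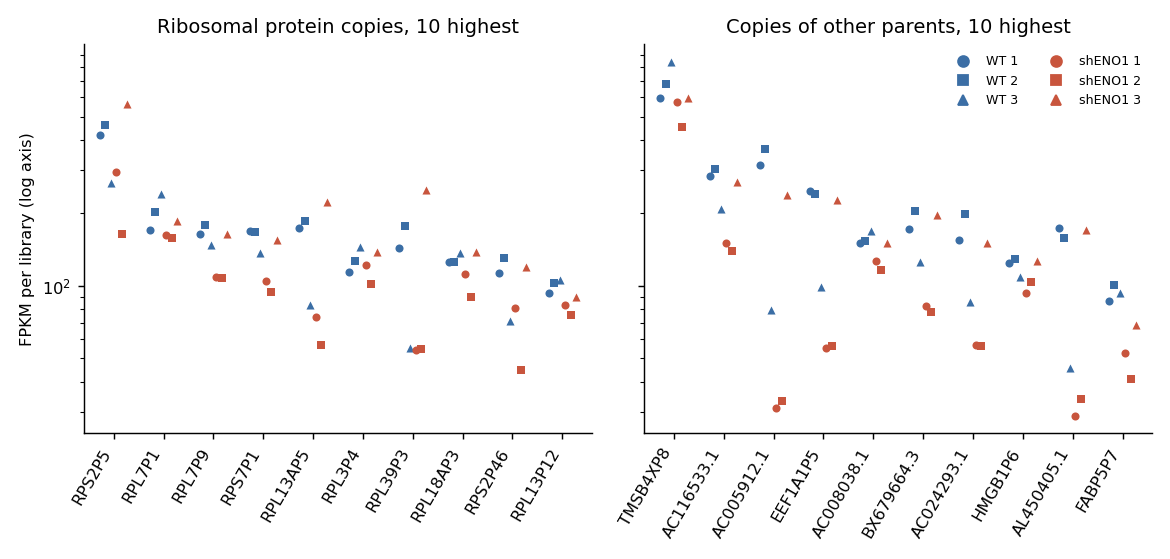
FPKM in each library on a log axis for the 10 RP copies (left) and the 10 other copies (right) with the highest mean; blue marks wild-type and red shENO1 libraries, and the marker shape gives the replicate. In EEF1A1P5, AC005912.1 and RPL39P3 the red triangle of shENO1 replicate 3 lies with wild-type replicates 1 and 2, far above the other shENO1 libraries.

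Levels followed how closely a copy matched its parent. A parent was assigned to 325 members by name (320 of these were also the best match by sequence), to 217 by sequence, and to 22 not at all. Identity over the aligned stretch had a median of 97.4% in RP copies and 96.1% in other copies, and 22 members were identical to their parent. Among RP copies the median level was 1.55 FPKM for the 15 copies below 90% identity, 1.46 FPKM for the 19 between 90% and 95%, 3.82 FPKM for the 19 between 95% and 98%, 29.02 FPKM for the 19 between 98% and 99%, and 50.3 FPKM for the 22 at 99% or more. The rise was smaller in other copies, from 1.89 FPKM in the 128 below 90% to 7.70 FPKM in the 68 at 99% or more. Across copies, identity and log2 mean FPKM had a Spearman correlation of 0.71 in 94 RP copies (Pearson 0.53) and 0.38 in 447 other copies (Pearson 0.29); copies of a parent share its sequence, so these points are not independent. The level of the parent itself ran with the level of the copy only weakly (Spearman 0.05 in 94 RP copies and 0.17 in 417 other copies). Of 564 members, 245 shared no window of 100 bases with a transcript of any other gene that did not overlap them, and 18 shared all of theirs. The parent was not singled out in that count. Whether reads of the parent were placed on the copies was not tested.

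**Figure D2:**
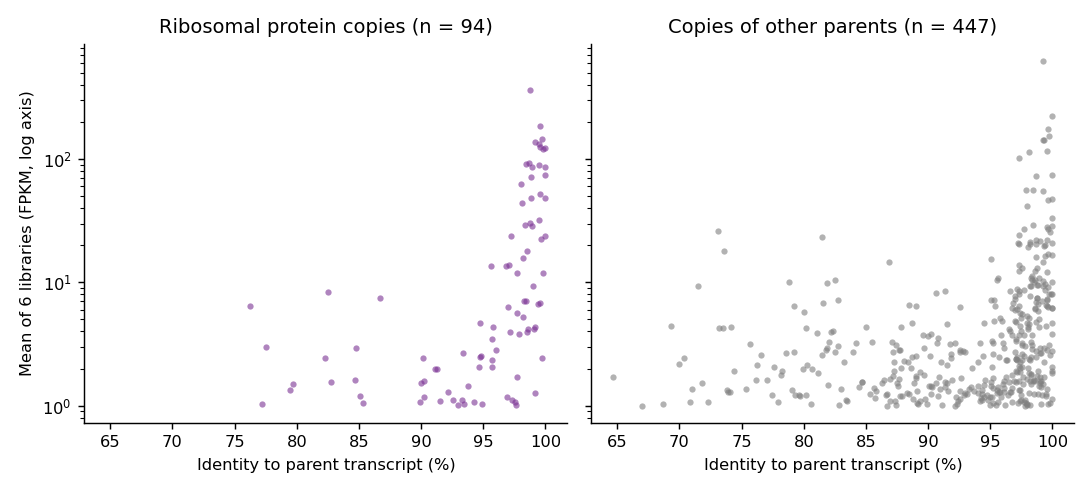
Mean level over the 6 libraries (FPKM, log axis) against identity to the parent transcript (%) for 94 RP copies (left) and 447 other copies with an aligned parent (right); each point is 1 member. RP copies above 10 FPKM sit almost all above 95% identity, with a median of 50.3 FPKM at 99% or more and of 1.55 FPKM below 90%.

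The split between libraries ran with identity too. Wild-type replicates 1 and 2 and shENO1 replicate 3 were together the 3 highest libraries in none of the 15 RP copies below 90% identity, in 1 of 19 (5.26%) between 90% and 95%, in 6 of 19 (31.6%) between 95% and 98%, in 10 of 19 (52.6%) between 98% and 99%, and in 14 of 22 (63.6%) at 99% or more. Other copies went from 6 of 128 (4.69%) below 90% to 21 of 66 (31.8%) between 98% and 99% and 14 of 68 (20.6%) at 99% or more. Levels rose with identity as well, so the 2 cannot be told apart here. The split was not particular to copies: it was found in 85 of 274 other parents (31.0%) and 48 of 85 cytosolic RP genes (56.5%). Some of these splits were close to on and off. RPSAP47, a copy of the laminin-receptor and small-subunit gene RPSA, held 23.0, 30.0 and 0.0813 FPKM in wild-type and 0.217, 0.370 and 28.5 FPKM in shENO1 libraries. RPL24P4, a copy of the large-subunit gene RPL24, held 48.8, 54.8 and 2.92 FPKM against 3.05, 2.66 and 61.8 FPKM. RPSAP47 and RPL24P4 were chosen after their values had been seen. In both, each group holds libraries at both levels, and a test of the groups cannot see the split. EEF1A1 itself, at 1338, 1456 and 1649 FPKM against 1150, 1197 and 1328 FPKM, did not show the split of EEF1A1P5. RPS27, at 705, 818 and 346 FPKM against 230, 192 and 643 FPKM, shared the order of its copy AC005912.1.

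What the members shared beyond the rule was the form of a processed copy. Of 564 members, 526 had a single exon, and the alignment of 522 of the 541 aligned members ran across at least 1 exon junction of the parent (94 of 94 RP copies), with a median of 4 junctions. The gene models were short, with a median of 504.5 bases. Members lay on every chromosome but Y, and the 94 RP copies traced to 48 parents. RPL7A and RPL21, both of the large subunit, had the most members by name or sequence, 8 and 7. Copies of 1 parent need not be alike: RPL7AP6 had 18.0 FPKM at 98.5% identity, while RPL7AP65 had 1.02 FPKM at 77.2%. Of the members, 180 overlapped no other gene, 245 lay opposite another gene, 128 lay in an intron of a gene on the same strand and 11 overlapped an exon on the same strand.

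The comparison of shENO1 with wild-type cells asked whether members rose or fell with ENO1 knockdown. More members fell than rose. Among the 94 RP copies 7 fell (7.45%) and 1 rose (1.06%), and among the 470 other copies 40 fell (8.51%) and 3 rose (0.638%). Over all 12809 genes tested 14.3% passed the threshold, 7.86% as higher and 6.46% as lower, so the share of members that fell was near the background and the share that rose was below it. The test was limma on log2(FPKM + 1) with Benjamini-Hochberg adjustment over all genes tested, with a threshold of 0.05 on the adjusted p. The median log2 fold change was -0.30 in RP copies and -0.24 in other copies, beside -0.02 over all genes tested. Groups did not overlap and were lower in shENO1 in 11 RP copies (11.7%) and 84 other copies (17.9%), against 17.9% of all genes, and were higher in 1 RP copy and 17 other copies (3.62%), against 19.6% of all genes.

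Among the parents, RP genes had few calls and a low median. None of the 48 RP parents rose and 3 fell (6.25%), RPL17, RPL22 and RPS15A. The median log2 fold change of the RP parents was -0.39. Of all cytosolic RP genes, 85 of 87 were tested. Of these, 1 rose (RPL7L1, 1.18%) and 3 fell (3.53%), with a median of -0.42. The 303 other parents include 16 RPL or RPS genes whose copies carry only clone names. Of the other parents 274 were tested, 15 rose (5.47%) and 14 fell (5.11%), with a median of -0.10. Among other kinds of pseudogene, transcribed processed pseudogenes had 1 higher and 1 lower of 41 with a median of -0.09, and unprocessed pseudogenes had 2 higher and 3 lower of 94 with a median of -0.14. Protein-coding genes had 954 higher and 547 lower of 10032 and a median of 0.02. Over all genes tested 7.86% were higher and 6.46% lower. Medians of classes carry no test here.

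Single libraries set parts of these medians. The median deviation of RP copies from the gene mean was 0.22, 0.23 and 0.04 in wild-type libraries and -0.18, -0.35 and 0.08 in shENO1 libraries on the log2(FPKM + 1) scale, so shENO1 replicate 3 lay above wild-type replicate 3. In other copies the wild-type libraries stood at 0.12, 0.11 and 0.15 and the shENO1 libraries at -0.10, -0.11 and -0.17, with no overlap of the groups. RP parents had the order of the RP copies, with 0.20, 0.33 and 0.10 against -0.31, -0.40 and 0.15. Without wild-type replicate 3 and shENO1 replicate 3 together, 34 RP copies fell and 2 rose, and 96 other copies fell and 37 rose, while the share of all genes past the threshold went from 14.3% to 28.7%. Leaving out single libraries left 0 to 11 RP copies and 4 to 34 other copies lower. The count of RP copies that fell was 0 without wild-type replicate 1, 2 without wild-type replicate 2 or shENO1 replicate 2, 4 without wild-type replicate 3 or shENO1 replicate 1, and 11 without shENO1 replicate 3. The count of other copies that fell went to 4 when wild-type replicate 1 was left out, to 11 for wild-type replicate 2 and to 18 for shENO1 replicate 1. The share of all genes past the threshold moved as well. It was 2.19%, 2.91% and 13.2% without wild-type replicates 1, 2 and 3, and 4.33%, 9.48% and 11.6% without shENO1 replicates 1, 2 and 3.

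The fall of the median was shared with other genes under 1000 bases, most of which were not protein-coding. Members with gene models under 500 bases had a median log2 fold change of -0.35 (n = 280), and the other genes tested of that length one of -0.48 (n = 983). Between 500 and 1000 bases the medians were -0.19 (n = 207) and -0.22 (n = 557), and between 1000 and 2000 bases -0.12 (n = 65) and -0.04 (n = 1071). Other genes of 4000 bases and over had a median of 0.02 (n = 6636). Protein-coding genes alone had -0.42 under 500 bases (n = 9 only) and -0.10 between 500 and 1000 bases (n = 92). Between 1000 and 2000 bases they had -0.006 (n = 759). Length and biotype are thus mixed in these classes. With the trend of each library with gene length removed, the median of RP copies was -0.061 and that of other copies 0.024. In that fit 16 members rose while 21 fell, so the one-sided count was not kept under that scaling. These were 6.56% of members, against 15.4% of all genes tested, of which 1088 rose and 884 fell. With the trend instead as a covariate of the fit, 16 members rose and 98 fell, the medians were -0.35 in RP copies and -0.22 in other copies, and 27.5% of all genes passed. These ways of treating length thus gave different answers.

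**Figure D3:**
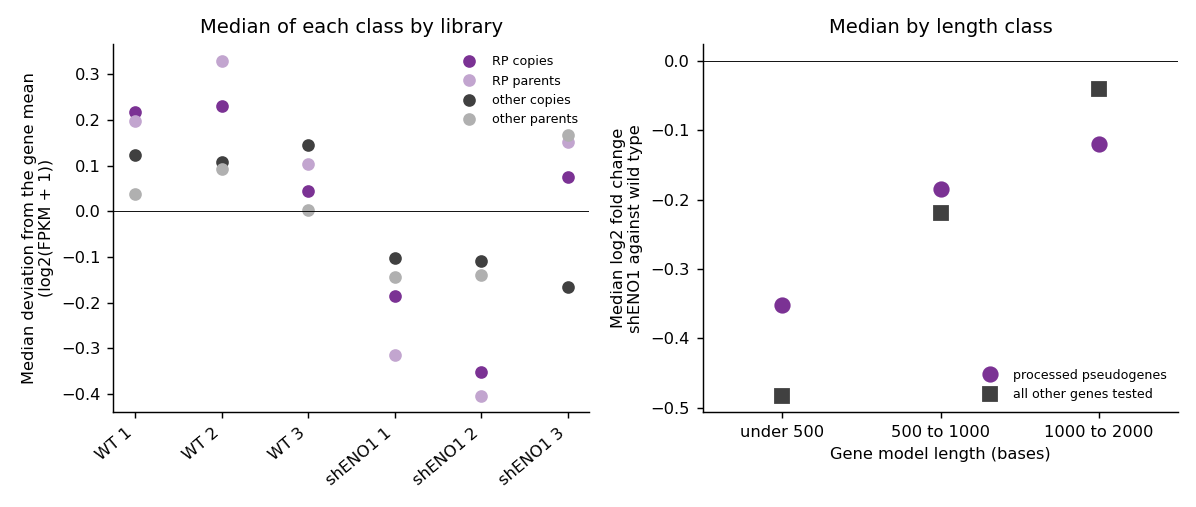
Left, median deviation from the gene mean in each library (log2(FPKM + 1)) for RP copies, RP parents, other copies and other parents. Right, median log2 fold change of shENO1 against wild type by gene model length, with processed pseudogenes as circles and all other genes tested as squares: both kinds are lowest under 500 bases, at -0.35 and -0.48.

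The RP copies that passed the test were mostly weak ones. RPL10P12 stood at 4.79, 2.21 and 4.09 FPKM in wild-type and 0.404, 0.621 and 0.186 FPKM in shENO1 libraries, on 1 to 23 reads a library. All wild-type values lay above all shENO1 values, and mean FPKM was 9.16-fold lower (log2 fold change -1.71, SE 0.25, adjusted p = 0.0111). RPL23AP42, a copy of the large-subunit gene RPL23A, held 14.9, 10.6 and 6.44 FPKM against 1.91, 3.77 and 3.40 FPKM (log2 fold change -1.50, SE 0.31, adjusted p = 0.0266). RPL29P11, from the large-subunit gene RPL29, was the highest of the 7, with 26.0, 21.1 and 12.5 FPKM against 5.09, 5.48 and 11.2 FPKM (log2 fold change -1.35, SE 0.35, adjusted p = 0.0474). Here shENO1 replicate 3 came close to wild-type replicate 3. RPS12P31, a copy of the small-subunit gene RPS12, was even within its groups, at 11.8, 9.64 and 11.8 FPKM against 5.01, 6.61 and 5.22 FPKM (log2 fold change -0.87, SE 0.13, adjusted p = 0.0114). RPS27P15, RPL17P50 and RPS2P55 fell too, by log2 fold changes of -1.13, -0.98 and -0.57, but these calls held under 6, 6 and 7 of 19 alternatives. The call of RPL29P11 held under 11 of 20, and that of RPL10P12 under 17 of 19. RPL7AP10 rose 2.39-fold, from 1.68, 1.46 and 1.19 FPKM to 4.06, 3.58 and 2.70 FPKM (log2 fold change 0.86, SE 0.16, adjusted p = 0.0189).

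Their parents did not pass the test, apart from RPL17. RPL10 held 218, 238 and 208 FPKM in wild-type and 152, 149.6 and 193 FPKM in shENO1 libraries (log2 fold change -0.43, adjusted p = 0.0899), and as a share of RPL10 the copy RPL10P12 went from 1.70% ± 0.677 (SD, n = 3) to 0.259% ± 0.159. The exact two-sided permutation p for that ratio was 0.1, the smallest that 3 against 3 libraries can give. RPL7AP10 went from 0.274% ± 0.0380 to 0.864% ± 0.310 of RPL7A, also with no overlap (exact permutation p = 0.1, n = 3 a group). RPL10P12 and RPL7AP10 were picked for their change in these same libraries, so their ratios are not a separate test. RPL17P50, whose call held under few alternatives, was the 1 fallen copy with a fallen parent: RPL17, at 22.5, 22.2 and 18.5 FPKM against 7.77, 9.76 and 11.4 FPKM, fell 2.18-fold (log2 fold change -1.06, SE 0.15, adjusted p = 0.0102). The share of RPL17P50 in RPL17 was 19.0% ± 8.99 and 15.5% ± 7.05, which overlapped. RPS2P5, the highest RP copy, was 53.0% ± 8.29 and 54.7% ± 16.7 of RPS2 in FPKM.

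Among the other copies that passed, UBE2V1P1 had the largest fall on the log2(FPKM + 1) scale. ATP5MFP4 fell more by the ratio of mean FPKM (11.8-fold), but that ratio rests on 1, 2 and 0 reads in the shENO1 libraries. UBE2V1P1 held 4.62, 5.32 and 3.57 FPKM in wild-type and 0.433, 0.296 and 0.533 FPKM in shENO1 libraries, on 2 to 37 reads a library. No shENO1 library came near the wild-type range, and mean FPKM was 10.7-fold lower (log2 fold change -1.94, SE 0.16, adjusted p = 0.00359). The call held under 18 of 19 alternatives. UBE2V1 did not pass, at 3.43, 3.03 and 3.51 FPKM against 3.16, 3.11 and 2.23 FPKM (log2 fold change -0.18, SE 0.13, adjusted p = 0.400). In FPKM the copy was 137% ± 37.0 of the parent in wild-type and 15.7% ± 7.42 in shENO1 cells (exact permutation p = 0.1, n = 3 a group). The pair was picked for the fall of the copy in these same libraries, so that ratio is not a separate test. UBE2V1P1 lies in an intron of C20orf194 on the same strand, and C20orf194 did not pass the test.

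Copies of RP genes under clone names were among the largest falls as well. AL031727.1, a copy of the small-subunit gene RPS14 by sequence, held 10.9, 13.4 and 7.93 FPKM in wild-type and 3.39, 1.88 and 1.30 FPKM in shENO1 libraries (log2 fold change -1.90, SE 0.27, adjusted p = 0.0103). AC068522.1, a copy of RPS26, held 4.61, 5.56 and 5.23 FPKM against 1.30, 1.72 and 1.20 FPKM (log2 fold change -1.35, SE 0.13, adjusted p = 0.00477). Both groups were tight in AC068522.1, and its call held under 18 of 19 alternatives. In all, 83 members with other names had an RP parent. With these moved to the RP class, 14 of 177 RP copies fell (7.91%) and 1 rose (0.565%), with a median log2 fold change of -0.35. Of 387 other copies 33 fell (8.53%) and 3 rose (0.775%), with a median of -0.19. Over all genes tested 6.46% fell and 7.86% rose, so the shares that fell were near the background.

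Further large falls came from copies of parents with varied roles. ATP5MFP4, a copy of the ATP synthase subunit gene ATP5MF, held 2.98, 2.16 and 3.51 FPKM in wild-type and 0.241, 0.493 and 0 FPKM in shENO1 libraries (log2 fold change -1.65, SE 0.22, adjusted p = 0.00864). AL096712.1, a copy of the endoplasmic reticulum gene IER3IP1, held 4.17, 3.62 and 5.90 FPKM against 0.404, 1.66 and 0 FPKM (log2 fold change -1.82, SE 0.36, adjusted p = 0.0237). Both had 13 reads or fewer in each library. AC108693.1 copies DBT, a part of the branched-chain keto acid dehydrogenase, AL355877.2 copies MRPS6 of the mitochondrial ribosome, AC114402.2 copies CHMP5 of the membrane-remodelling ESCRT machinery and AC091492.1 copies PFDN1 of the chaperone prefoldin. These 4 fell by log2 fold changes of -1.55, -1.53, -1.47 and -1.28, and BTBD10P2 fell by -1.23. None of their parents passed the test. The call of AC091492.1 held under 6 of 19 alternatives only, and that of BTBD10P2 under 17.

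FABP5P7 was the most abundant of the members that fell. It held 86.8, 101 and 93.6 FPKM in wild-type and 52.8, 41.1 and 68.5 FPKM in shENO1 libraries, on 253 to 637 reads a library (1.73-fold lower, log2 fold change -0.81, SE 0.19, adjusted p = 0.0365). Its parent FABP5, which encodes a fatty acid carrier of the cytosol, held 128, 134 and 98.1 FPKM against 58.6, 55.3 and 90.001 FPKM (log2 fold change -0.83, SE 0.22, adjusted p = 0.0502). Copy and parent were identical over the aligned stretch, and the copy was 79.4% ± 14.3 of the parent in wild-type and 80.2% ± 8.71 in shENO1 cells (exact permutation p = 0.9, n = 3 a group). The call of FABP5P7 held under 11 of 20 alternatives.

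**Figure D4:**
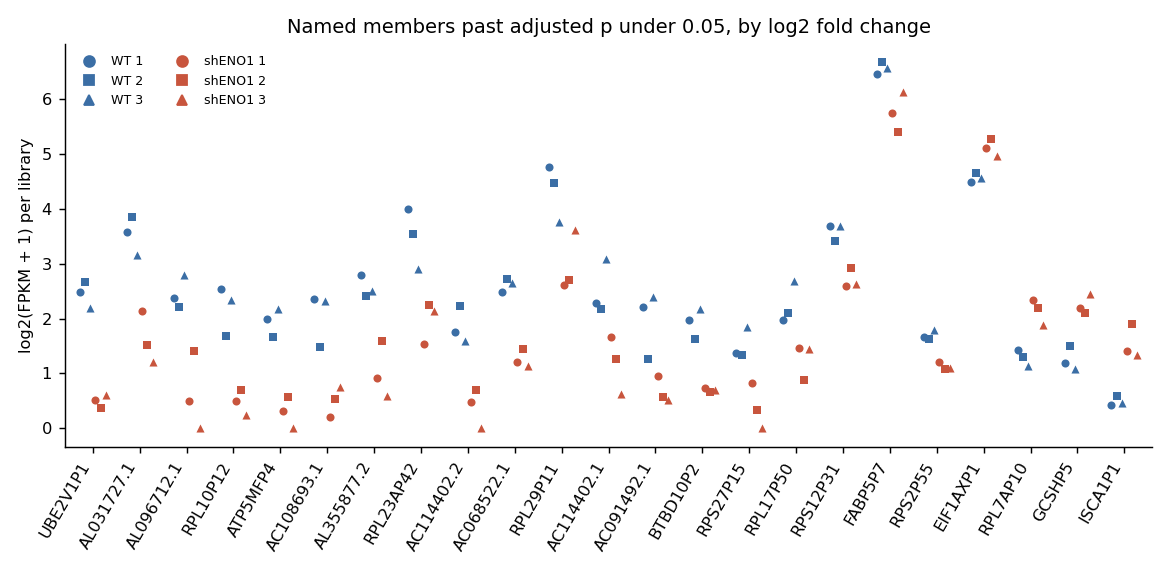
log2(FPKM + 1) in each library for named members past an adjusted p of 0.05, ordered by log2 fold change from UBE2V1P1 (-1.94) to ISCA1P1 (1.06); blue marks wild-type and red shENO1 libraries, and the shape gives the replicate. In each of them the groups do not overlap, and most lie below 3 on this scale, FABP5P7 and EIF1AXP1 being the high ones.

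Of the other copies 3 rose. ISCA1P1 stood at 0.343, 0.496 and 0.373 FPKM in wild-type and 1.66, 2.72 and 1.53 FPKM in shENO1 libraries, on 2 to 16 reads a library (log2 fold change 1.06, SE 0.20, adjusted p = 0.0192). Its parent ISCA1 did not pass, at 4.96, 5.19 and 3.20 FPKM against 3.005, 3.93 and 5.67 FPKM (log2 fold change -0.08, adjusted p = 0.850). GCSHP5, from GCSH, the carrier protein of glycine breakdown, held 1.27, 1.84 and 1.11 FPKM against 3.57, 3.28 and 4.43 FPKM (log2 fold change 0.99, SE 0.16, adjusted p = 0.0136). The parent GCSH was below the filter of the test, and stood at 0.325, 0.278 and 0.255 FPKM against 0.821, 1.02 and 0.984 FPKM, again with no overlap. EIF1AXP1 held 21.5, 24.3 and 22.6 FPKM against 33.5, 37.5 and 30.1 FPKM (1.48-fold higher, log2 fold change 0.54, SE 0.11, adjusted p = 0.0252). EIF1AX, a factor of start codon selection, rose with it, from 24.1, 23.3 and 22.7 FPKM to 29.02, 32.3 and 34.7 FPKM (log2 fold change 0.44, SE 0.10, adjusted p = 0.0324). The copy is 99.5% identical to EIF1AX, and GCSHP5 is 99.8% identical to GCSH.

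Of the 47 members that fell, 42 had a tested parent. Of these parents 1 fell, 3 rose and the rest did not pass, beside 6.46% lower and 7.86% higher over all genes tested; a count this small is near that background. The 47 had a median identity of 91.8% to their parent, and 37 of them had a mean under 5 FPKM. One that fell beside a parent that rose was AL139396.1 (log2 fold change -0.93), whose parent by sequence, the histone methyltransferase gene SUV39H2, rose by 0.42. Over copies, the log2 fold changes of copy and parent had a Spearman correlation of 0.12 in 94 RP pairs and 0.18 in 417 other pairs; copies of 1 parent enter with the same parent value.

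**Figure D5:**
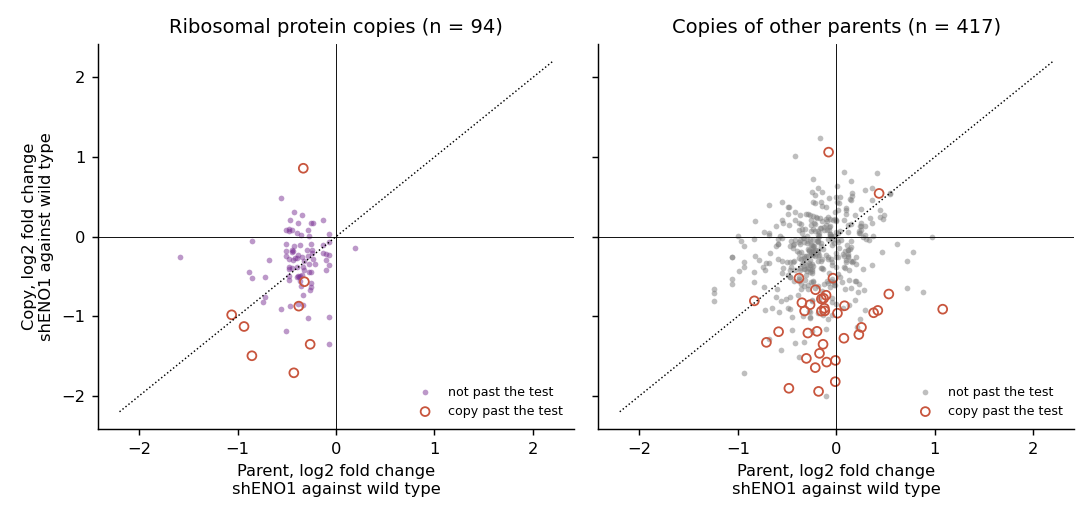
log2 fold change of shENO1 against wild type of each copy (vertical) against that of its parent (horizontal), for 94 RP copies (left) and 417 other copies with a tested parent (right); open red circles are copies past an adjusted p of 0.05 and the dotted line marks equal change. Most of the red circles lie below the line. The parents of the circled RP copies had log2 fold changes from -0.26 (RPL29) to -1.06 (RPL17). RPL17P50, FABP5P7, RPS27P15 and EIF1AXP1 are among the circles close to the line.

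Position gave a further description. The median log2 fold change was -0.12 in the 180 members that overlapped no gene (6 fell), -0.30 in the 245 opposite another gene (29 fell), and -0.35 in the 128 in an intron on the same strand (12 fell). It was -0.12 in the 11 that overlapped an exon on the same strand (0 fell). In the first 3 positions other copies stood at -0.06, -0.30 and -0.37. RP copies hardly differed by position, at -0.28, -0.30 and -0.30. Of the genes that overlapped a fallen member 36 were tested, and 3 of these fell: STX3 opposite FABP5P7, CEP85 opposite AL355877.2 and TBC1D22B opposite AL096712.1. That count is near the 6.46% of all genes tested that fell. ZNF431, opposite RPL7AP10, rose as that copy did. Whether the libraries kept the strand was not given in the sources used here, so reads of a member and of an overlapping gene cannot be told apart.

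As a rule a copy had a small part of the level of its parent, but 63 of 542 copies were above the gene assigned as parent. In FPKM the median copy had 2.62% of the parent in RP copies and 7.76% in other copies. The gene models of RP parents had a median length of 2954.5 bases against 493 in RP copies, which lowers the FPKM of the parents; in reads, the RP copies together had 4.57%, 4.396% and 3.78% of the reads of their parents in wild-type libraries and 4.05%, 3.68% and 4.91% in shENO1 libraries. A copy was above its parent in 4 of 94 RP pairs and 59 of 448 other pairs. In 31 of these 59 the parent was under 1 FPKM, with 10 at 0. Some pairs rest on weak matches and may not be copy and parent, such as GPX1P1 with GPX2 at 73.1% identity and AC019206.1 with ZNF607 at 70.8%. EEF1G, which encodes a subunit of the elongation factor complex, was listed at 0 in all libraries, while AC008038.1, a copy of it with 99.2% identity, held 150, 152 and 168 FPKM in wild-type and 126, 116 and 149 FPKM in shENO1 libraries. The exons of EEF1G lie to 99.9% within exons of other genes on the same strand. The gene with the largest summed overlap was AP002990.1, which had a mean of 0.488 FPKM. AC116533.1 had a mean of 225 FPKM and is identical to its large-subunit parent RPL36A, which had 2.502 FPKM. AC024293.1, with 117 FPKM, matched the small-subunit gene RPS10, with 1.41 FPKM, at 99.6%, and BX679664.3, with 143 FPKM, matched RPL17, with 15.3 FPKM, at 99.3%. Exons of RPL36A, RPS10 and RPL17 overlap exons of other genes on the same strand over 8.401%, 39.4% and 32.7% of their length. In each case the gene with the largest summed overlap was a read-through gene. Which locus made these transcripts cannot be told apart from the table.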

How the data were processed

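RNA of 3 wild-type and 3 shENO1 libraries of U937 cells was measured. The deposited table held FPKM values for 58735 genes, normalised by the authors with Cuffnorm on hg38 (GRCh38), with STAR and Cufflinks also named, per the submitters' processing notes; tool versions, the strand setting and the counting of multiply matching reads are not given in the sources used here. FPKM multiplied by gene length was a whole number of steps for 100% of values above 0 (tolerance 0.001), which gave reads per gene and a depth of 14216739 to 17499636 reads in genes per library. Fewer reads give less precise values.

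The 12809 genes averaging 1 FPKM or more entered a limma 3.58.1 fit (R 4.3.3) of log2(FPKM + 1) on the 2 groups with a mean-variance trend, adjusted with the Benjamini-Hochberg method; every adjusted p in the text comes from this fit unless another is named. The pseudocount of 1 makes log2 fold changes of low genes too small, so fold values are ratios of mean FPKM. SE is the moderated standard error, and errors after ± are SD over 3 libraries. Recovered reads were used for limma-voom as an alternative only, which called 1514 genes higher and 868 lower. Parents were found by name (the copy's name without its last P and digits) and otherwise by blastn 2.17.0 against GENCODE release 29 transcripts (at least 50% of the copy covered). Named genes were the 10 highest members of each class, up to 12 called members in each direction and class, their parents, the members next to the threshold, and ENO1 with its copies; RPSAP47, RPL24P4, RPL7AP6, RPL7AP65, AL139396.1, the overlapping genes, and the copies above their parents were added after their values had been seen.

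The members, gene lists and tests were chosen with earlier results of these data known. Same-numbered libraries were not treated as pairs: the correlation of deviations between same-numbered libraries was -0.08, -0.33 and -0.46. No 2 replicates of a group were alike within sampling noise (chi-square per degree of freedom 3.98 to 41.5). The test was tried on simulated data with known changes. Alternatives covered the pseudocount, filter, scaling, gene length, prior, threshold, each library left out, and the replicate block; the fit with the length trend as a covariate, the threshold of 0.1 and the class by name or sequence were chosen after seeing the data. A few items chosen by these rules are not reported here.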

Additional observations from a re-analysis of the deposited data

How the results depend on the processing

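The number of calls moved with most choices, while no called member changed sign under any of them. For many choices this was fixed in advance. The groups of all 47 fallen and 4 risen members did not overlap, so leaving out libraries could not change a sign. The replicate block leaves the estimate as it is, and with a filter of 5 FPKM only 11 of the 51 were tested. Counts are given as higher and lower, for RP copies and then for other copies, beside 1 and 7, and 3 and 40. With no filter they were 0 and 2, and 1 and 12 (all genes 445 and 381). A filter of 5 FPKM gave 0 and 3, with 7 lower other copies (all genes 693 and 555). A filter of 0.1 FPKM gave 4 and 24 lower (all genes 695 and 642). Quantile normalisation gave 4 lower RP copies and 5 higher other copies (all genes 1135 and 789). Scaling on nuclear genes gave 5 higher other copies (all genes 1259 and 663). With the length trend removed 2 RP copies and 19 other copies fell and 15 other copies rose (all genes 1088 and 884). With it as a covariate 20 and 78 fell and 15 rose (all genes 1752 and 1771). limma-voom gave 4 and 26 lower and 5 higher other copies (all genes 1514 and 868). At an adjusted p under 0.1, 67 other copies fell and 12 rose (all genes 1607 and 1426). Without wild-type replicate 3 and shENO1 replicate 3 together, 2 and 34 RP copies, 37 and 96 other copies and 1649 and 2033 of all genes passed.

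Leaving out 1 library gave 0 to 1 higher and 0 to 11 lower RP copies, 0 to 8 higher and 4 to 34 lower other copies, and 147 to 914 higher and 134 to 775 lower genes in all. The replicate block, with numbers that do not pair the libraries, left 0 members in either direction, 0 higher genes and 1 lower gene.

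The median of RP copies was -0.061 with the length trend removed. The median of other copies was -0.31 and -0.11 with pseudocounts of 0.1 and 5, -0.16 after quantile normalisation, -0.20 on nuclear genes, 0.024 with the length trend removed, -0.28 with limma-voom, -0.21 without both replicates numbered 3 and -0.19 by name or sequence, a class rule that gave 14 lower RP copies. The median of RP parents was -0.64 without both replicates numbered 3. With parents also found by sequence, 542 copies had one, beside 325 by name. The causes were not tested, beyond what fewer genes or libraries change by construction. Weak members rest on few reads, down to 25 over all 6 libraries in RPS27P15, and counting error is large there.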
